A study of Mus musculus with 200 samples.

Results

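The Gpr genes are receptors that were numbered in the order of their discovery because no ligand was known for them, and many are still called orphans. All counted genes whose symbol was Gpr followed by digits alone were taken, Gpr34 excepted, if they had at least 10 counts in at least 20 of the 200 mice. The rule kept 55 of 69 such genes, out of 56941 genes listed. The 13 genes left out for too few counts reached 10 counts in at most 4 mice (Gpr15), and among the genes kept the count was lowest for Gpr174 (36 mice), Gpr35 (37 mice) and Gpr65 (46 mice).

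RNA of a snap-frozen hemisphere of each mouse was sequenced after closed-head injury (CHI), an impact on the intact skull at the midline under anaesthesia, or after sham surgery (anaesthesia and a scalp incision). Of the 200 mice 67 were sham. They were of both sexes, 3.3 to 7.67 months old, and killed at 9, 24 or 72 h. The strains were C57BL/6J (61 mice) and 3 lines labelled IL-1R1, called gKO (55 mice), eRestore (50) and nRestore (34). In C57BL/6J there were 15 CHI mice at 9 h and 14 at each later time, with 6 sham mice at each time. The gKO groups held 13, 12 and 12 CHI mice at 9, 24 and 72 h with 6 sham mice each, the eRestore groups 12, 9 and 12 CHI mice with 6, 5 and 6 sham mice, and the nRestore groups 6, 8 and 6 CHI mice with 4, 5 and 5 sham mice. The labels name the interleukin-1 receptor gene in these strains but expand neither gKO, eRestore nor nRestore, and name no Cre driver or promoter. The deposited tables hold the allele only as RNA, and Il1r1 was not lower in gKO (median 9.92 CPM, counts scaled to library size) than in C57BL/6J (5.2 CPM), so the genotype was not checked by it. The RNA of sex-linked genes went against the label in 2 of 200 mice, an eRestore sham mouse at 24 h and an nRestore CHI mouse at 72 h. Total counts ranged from 14857985 to 57355676 per mouse (median 20258936). No experiment held mice of 9 h together with mice of a later time, and since surgery was done in the morning, tissue at 9 h was also taken at another time of day.

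G protein-coupled receptors cross the membrane several times and act through Gs proteins, which raise cyclic AMP, Gi proteins, which lower it, Gq or G12 proteins, and arrestins. Several Gpr receptors signal without any ligand, others sense protons, fatty acids or oxysterols, and some proteins that bear the name sit in the Golgi or lysosome. In the brain many mark a cell type, such as Gpr17 for committed oligodendrocyte precursors and Gpr84 for activated microglia. Since whole tissue was measured, fewer cells of a type and less RNA per cell cannot be told apart.

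The promoters of 4 members are shown, namely those of the cyclic AMP-raising receptors Gpr3 and Gpr6 and of Gpr65 and Gpr84, since the results at 9 h turn on them or, for Gpr6, on its close relative Gpr3. Each is the 250 bases before the start of the canonical transcript (GRCm39, GENCODE M39), printed 5' to 3' along the gene. Capitals mark a cyclic AMP response element (TGACGTCA), its core (TGACG, which the full element contains), a TATA box (TATAAA) or a GC box (GGGCGG), on either strand.
Gpr3 (chr4:132939848-132940097, reverse strand): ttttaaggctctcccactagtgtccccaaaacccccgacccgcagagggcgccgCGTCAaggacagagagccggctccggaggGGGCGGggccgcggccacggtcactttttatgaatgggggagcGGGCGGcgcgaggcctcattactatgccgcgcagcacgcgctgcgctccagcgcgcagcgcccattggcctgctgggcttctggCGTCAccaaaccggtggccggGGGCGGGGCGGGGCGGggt
Gpr6 (chr10:40948305-40948554, reverse strand): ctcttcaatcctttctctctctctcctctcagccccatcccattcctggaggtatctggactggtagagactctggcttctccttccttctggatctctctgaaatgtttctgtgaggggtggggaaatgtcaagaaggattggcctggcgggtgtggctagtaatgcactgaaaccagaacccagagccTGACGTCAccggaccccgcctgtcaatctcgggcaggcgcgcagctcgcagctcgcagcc
Gpr65 (chr12:98234636-98234885, forward strand): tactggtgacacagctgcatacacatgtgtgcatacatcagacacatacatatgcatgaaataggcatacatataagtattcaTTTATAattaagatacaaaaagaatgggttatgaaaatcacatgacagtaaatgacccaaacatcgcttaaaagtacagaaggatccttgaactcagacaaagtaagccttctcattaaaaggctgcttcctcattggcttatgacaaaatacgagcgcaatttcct
Gpr84 (chr15:103219040-103219289, reverse strand): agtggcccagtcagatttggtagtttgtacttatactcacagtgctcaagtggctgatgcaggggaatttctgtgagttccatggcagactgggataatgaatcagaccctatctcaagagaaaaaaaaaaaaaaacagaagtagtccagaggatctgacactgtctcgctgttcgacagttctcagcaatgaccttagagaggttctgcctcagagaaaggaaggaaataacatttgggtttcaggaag
The Gpr6 window held the full element with its first base 60 bases before the start, and an exon of Gm32284 on the other strand overlaps that window. The Gpr3 window held the core 2 times, the nearer one 40 bases before the start, and 5 GC boxes. Gpr65 had 1 TATAAA match, on the other strand, and Gpr84 had no match to any of these motifs. For Gpr3 the annotated gene begins further upstream, so that its window lies inside the gene but outside its annotated exons. Over all 21757 promoters of this length, 1.7% held TGACGTCA, against 1 of the 55 members (Gpr6). The core TGACG was held by 18% of all promoters and by 10 of 55 members, the TATA box by 11.9% and by 10 members, the GC box by 36.3% and by 18 members, the E-box CACGTG by 6.26% and by 2 members, and the gamma-activated site TTCNNNGAA by 7.7% and by 8 members (14.5%). These are letters found in the windows, not sites shown to be bound.

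Levels of the receptors were compared in TPM, which corrects for transcript length. Among the highest means over the 200 mice were those of Gpr162 (108.5 ± 17.3, SD), Gpr137 (65.9), Gpr158 (59.8) and Gpr26 (36.5). The lowest included Gpr65 (0.316), Gpr179 (0.25), Gpr35 (0.195) and Gpr174 (0.152). The median of the 55 means was 7.16 TPM, and 23 members lay at 10 TPM or above, 23 between 1 and 10 and 9 below 1. The 6 leukocyte and microglia receptors had means from 0.152 to 1.11 TPM, and the 5 organelle proteins from 14.8 to 65.9 TPM. Gpr6 and Gpr101 also varied widely between mice, and part of that variation followed the time point, as described for the sham mice at the end.

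**Figure D1:**
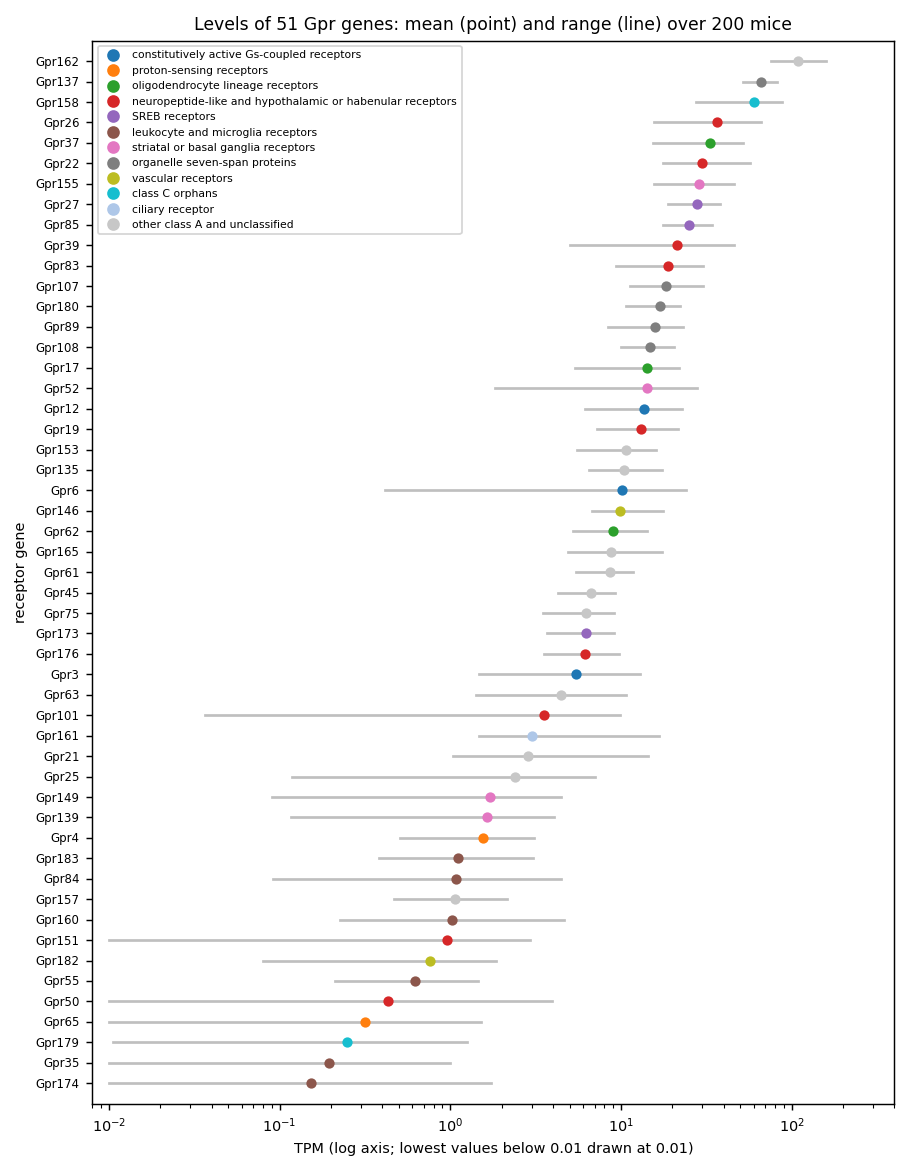
Mean level (point, coloured by role group) and lowest to highest level (line) of 51 of the 55 Gpr genes over 200 mice, in TPM on a log axis. Of the genes drawn, Gpr162 (108.5 TPM) lies highest and Gpr174 (0.152 TPM) lowest.

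The first comparison asked which receptors had changed 9 h after CHI in C57BL/6J. Of 53 members tested, 14 passed an adjusted p under 0.05 (called), 5 of them higher and 9 lower after CHI. Among all genes 14.1% were called, 7.05% higher and 7% lower, and Gpr50 and Gpr174 were too low to be tested. The members called higher included the proton sensor Gpr65, the fatty acid receptor Gpr84, the habenular receptor Gpr151 and Gpr146. Those called lower were Gpr17 and Gpr37 of the oligodendrocyte lineage, Gpr3 and Gpr12, which raise cyclic AMP without a ligand, and the neuronal receptors Gpr19, Gpr26, Gpr45, Gpr61 and Gpr83. The median log2 fold change of the 53 members was -0.03, beside -0.01 over all genes, and 28 members had an unadjusted p under 0.05. Counts at an unadjusted p under 0.05, here and below, are given without the share of all genes at that level, which was not counted. They are thus not read as results about the receptors or other listed genes.

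**Figure D2:**
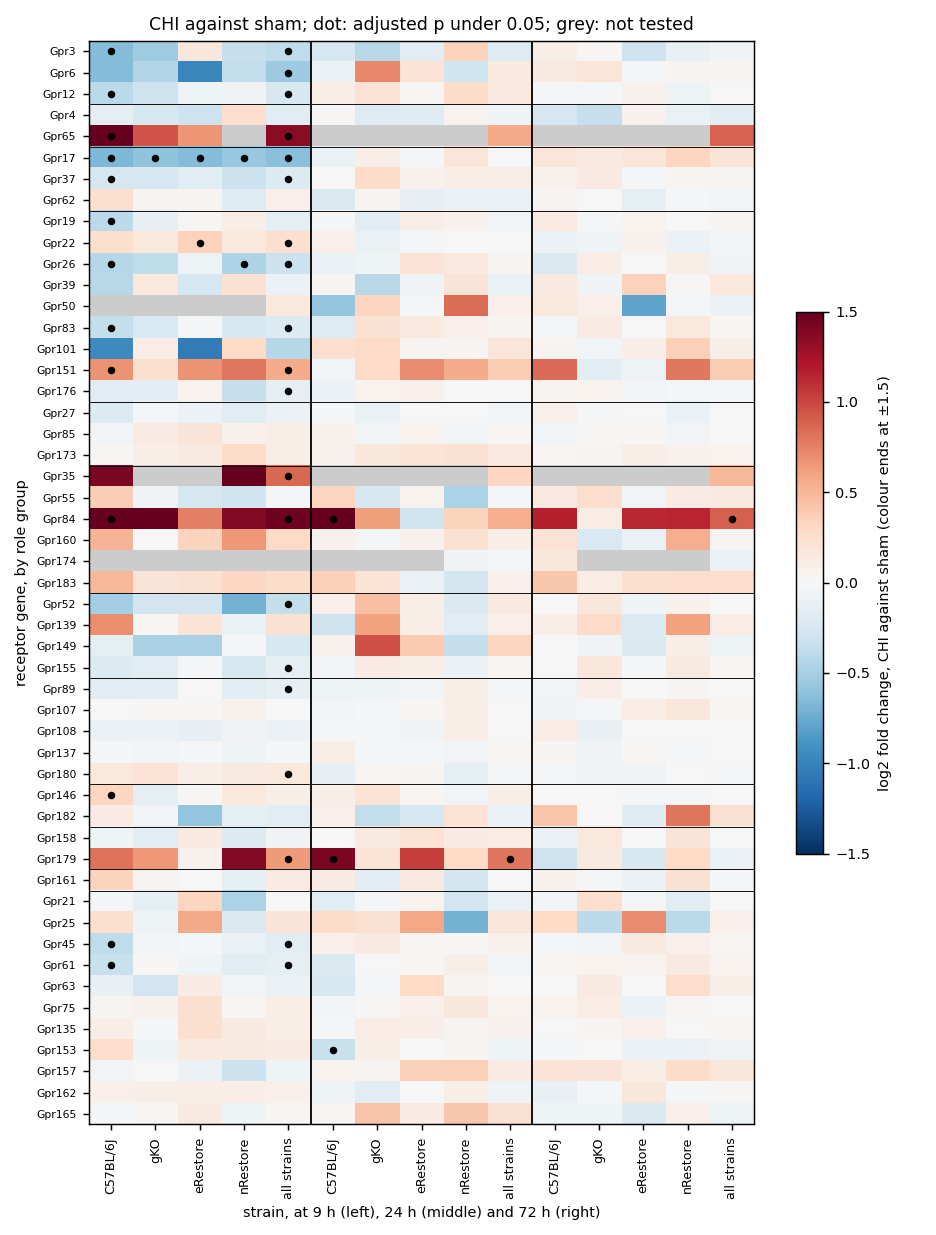
Log2 fold change after CHI for 51 of the 55 receptors (rows, grouped by role) in each strain and in all strains together (columns) at 9, 24 and 72 h, with a dot where the adjusted p was under 0.05. In the C57BL/6J columns there are 13 dots at 9 h, 3 at 24 h and 0 at 72 h.

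Gpr17, which restrains the maturation of oligodendrocyte precursors, had the smallest p. It lay at 16.2 to 28.65 CPM (median 25.7) in the 15 CHI mice, and at 28.67, 31.1, 34.4, 37.4, 47.2 and 49.6 CPM in the sham mice. All CHI mice were below all sham mice, though the nearest of each were almost level. The means were 23.9 ± 4.15 CPM (SD, n = 15) and 38.1 ± 8.57 CPM (SD, n = 6), and the log2 fold change was -0.68 ± 0.11 (SE, adjusted p = 0.00024). Gpr37, a receptor of myelinating oligodendrocytes for which prosaposin was proposed as a ligand, ranged from 47.9 to 92.6 CPM (median 74.1) after CHI and from 67.7 to 97.0 CPM (median 83.5) after sham, a change of -0.26 ± 0.08 with overlapping groups. Gpr62, also of oligodendrocytes, was not called. Beside these changes, 0 of 5 oligodendrocyte markers were called (summed level 3388 to 5627 CPM after CHI and 3919 to 5609.5 CPM after sham), and of 3 markers of oligodendrocyte precursors Pdgfra was higher (0.30 ± 0.07) and C1ql1 lower (-0.47 ± 0.16).

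Gpr3, which in neurons and oocytes keeps cyclic AMP high through Gs, lay at 4.13 to 7.82 CPM (median 5.46) after CHI and at 7.45, 8.14, 8.3, 8.8, 9.48 and 10.6 CPM after sham. Of 15 CHI mice, 14 were below every sham mouse. The means were 5.62 ± 1.16 and 8.80 ± 1.13 CPM (SD), and the log2 fold change was -0.65 ± 0.12 (adjusted p = 0.00039). Its relative Gpr12 changed by -0.40 ± 0.08, from 9.49 to 14.2 CPM after sham to 6.84 to 11.0 CPM after CHI, with overlap. Gpr6, the third of the group and a receptor of striatal neurons, was not called in C57BL/6J, where 1 sham mouse at 8.47 CPM stood against a sham median of 1.42 CPM.

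The largest changes upward were in receptors near the limit of detection. Gpr65, a proton sensor of leukocytes and microglia, gave 238 counts over 15 CHI mice and 9 counts over 6 sham mice, 2 of which had 0. The level was 0.11 to 1.07 CPM (median 0.57, mean 0.597 ± 0.314) after CHI and up to 0.211 CPM (mean 0.074 ± 0.0921) after sham. Of 15 CHI mice, 13 exceeded every sham mouse. The log2 fold change was 3.06 ± 0.56 (adjusted p = 0.00052), a value that rests on few sham counts. With 9 counts over all sham mice, none of them could reach the minimum count for testing. Gpr65 thus entered the test through its CHI mice alone, the group in which it was higher, which limits what its p-value shows. Gpr84, which binds medium-chain fatty acids, lay at 0.181 to 3.99 CPM (median 1.42, mean 1.61 ± 0.981) after CHI and at 0.113, 0.17, 0.199, 0.261, 0.292 and 0.527 CPM after sham. In 12 of 15 CHI mice it exceeded every sham mouse, and the change was 2.54 ± 0.49 (adjusted p = 0.0011). The lowest sham levels of Gpr84 also lay below the minimum count for testing, so the sham mice alone could not bring it into the test. Gpr84 entered with the help of CHI mice, the group in which it was higher, which limits what its p-value shows. Of 5 microglial markers in the same comparison, P2ry12 (-1.05 ± 0.14) and Tmem119 (-0.40 ± 0.13) were lower and none was higher, with a summed level of 179.5 to 321 CPM after CHI and 251 to 420 CPM after sham. Of 7 markers of blood leukocytes 1 could be tested, and Cd3e and S100a8 were at 0 in most mice of both groups (summed level 0.818 to 2.89 CPM after CHI, 1.37 to 2.07 CPM after sham).

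Gpr4, a proton sensor of endothelium, was not called, at 1.37 to 2.35 CPM after CHI and 1.58 to 2.29 CPM after sham. Gpr151, a receptor of habenular neurons, ranged from 0.712 to 2.69 CPM (median 1.55) after CHI and from 0.625 to 1.48 CPM (median 0.879) after sham, a change of 0.67 ± 0.23 (adjusted p = 0.045). Of 3 habenular markers tested, Nwd2 was lower (-0.85 ± 0.12), and the 5 listed summed to 27.3 to 47.4 CPM after CHI and 41.6 to 86.6 CPM after sham. Gpr146, known from cholesterol metabolism in liver, rose by 0.32 ± 0.09, from a sham median of 22.1 CPM to 29.2 CPM.

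The neuronal receptors called lower each fell moderately. Gpr26, a forebrain receptor with activity of its own, had 235 to 419 CPM (median 300.2) after sham and 184.1 to 287 CPM (median 227) after CHI, a change of -0.43 ± 0.09 (adjusted p = 0.0029). Gpr19 changed by -0.39 ± 0.10, Gpr45 by -0.38 ± 0.09, Gpr83, a receptor for the peptide PEN, by -0.36 ± 0.09 and Gpr61, a receptor linked to energy balance, by -0.33 ± 0.09. For Gpr45, 14 of 15 CHI mice (7.26 to 12.6 CPM) lay below every sham mouse (10.6 to 12.7 CPM). The means after sham and CHI were 9.75 ± 1.35 and 7.49 ± 1.13 CPM for Gpr19, 11.7 ± 0.81 and 9.02 ± 1.29 CPM for Gpr45, 34.4 ± 8.98 and 26.8 ± 4.62 CPM for Gpr83 and 16.3 ± 1.61 and 13.0 ± 1.63 CPM for Gpr61. CHI mice below every sham mouse numbered 13 for Gpr19, 11 for Gpr61, 9 for Gpr26 and 8 for Gpr83. The 5 neuronal markers had a median change of 0.06 with 0 called.

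The C57BL/6J mice at 9 h came from 2 experiments (10 CHI and 4 sham mice, and 5 CHI and 2 sham mice). All 14 called members kept their direction in both. Alone, the larger experiment called 7 of them (Gpr3, Gpr12, Gpr17, Gpr45, Gpr65, Gpr84 and Gpr151) and the smaller 2, among them Gpr37. Some sizes differed between the experiments by over 1.5 times, with -0.78 and -0.38 for Gpr17, 0.95 and 0.11 for Gpr151, and -0.16 and -0.47 for Gpr37, in the larger and the smaller experiment. When each sham mouse was left out in turn, 9 of the 14 were called every time. Gpr19 was lost without sham replicate 2, Gpr83 without replicate 5, Gpr37 without replicate 4, 5 or 6, and Gpr151 without any of replicates 1, 2, 3, 5 and 6.

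Strains were then set side by side at 9 h. Gpr17 was the member called in every strain when all experiments were used, and with the largest experiment alone its call was lost in gKO and in eRestore. It was called alone in gKO (1 of 52 members tested, beside 0.199% of all genes), with Gpr22 among others in eRestore (3 of 52, beside 7.34%) and with Gpr26 in nRestore (2 of 52, beside 0.608%). Members with an unadjusted p under 0.05 numbered 11 in gKO, 12 in eRestore and 12 in nRestore, again without the share of all genes at that level.

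Gpr17 lay at 20.2 to 35.3 CPM (median 26.4) in gKO CHI mice and 29.8 to 52.0 CPM (median 41.5) in gKO sham mice, a change of -0.60 ± 0.08 (adjusted p = 0.0017) with overlap. In eRestore it lay at 19.0 to 31.2 CPM (median 26.2) after CHI and 33.9 to 51.2 CPM (median 37.8) after sham, without overlap (-0.65 ± 0.11, adjusted p = 0.0017). In nRestore the CHI mice lay at 24.8 to 35.4 CPM (median 29.0) and the sham mice at 43.9, 44.7, 45.8 and 52.0 CPM, also without overlap (-0.57 ± 0.11, adjusted p = 0.034). The 4 changes lay between -0.68 and -0.57, and the test of a difference between strains gave an unadjusted p of 0.97. In nRestore, with 4 sham mice, the call of Gpr17 was lost without sham replicate 1, 3 or 4, and so was that of Gpr26.

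Gpr22, a receptor of heart and cortex, rose in eRestore by 0.34 ± 0.09 (adjusted p = 0.029), a call lost without any of sham replicates 1 to 5, without covariates, with experiment in place of age and with the largest experiment alone. In the same comparison the neuronal markers Slc17a7 (0.34 ± 0.10) and Syt1 (0.29 ± 0.08) were called higher and the meningeal markers Lum (-1.38 ± 0.37) and Ogn (-2.14 ± 0.40) lower. The 5 neuronal markers summed to 7526.5 to 9537.5 CPM after CHI and 6311.1 to 8925.3 CPM after sham, and the 4 meningeal markers to 6.51 to 27.9 CPM and 6.31 to 43.0 CPM. Their part in the value of Gpr22 was not tested. Gpr26 changed by -0.46 ± 0.10 in nRestore (adjusted p = 0.0498), from 247 to 297 CPM after sham to 173.5 to 255 CPM after CHI. By edgeR, Gpr84 was not called outside C57BL/6J, at 1.5 ± 0.35 in gKO (adjusted p = 0.077), 0.75 ± 0.33 in eRestore and 1.38 ± 0.42 in nRestore. It was called in gKO by DESeq2, with or without gene-length offsets, and in nRestore when no filter on low counts was used.

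**Figure D3:**
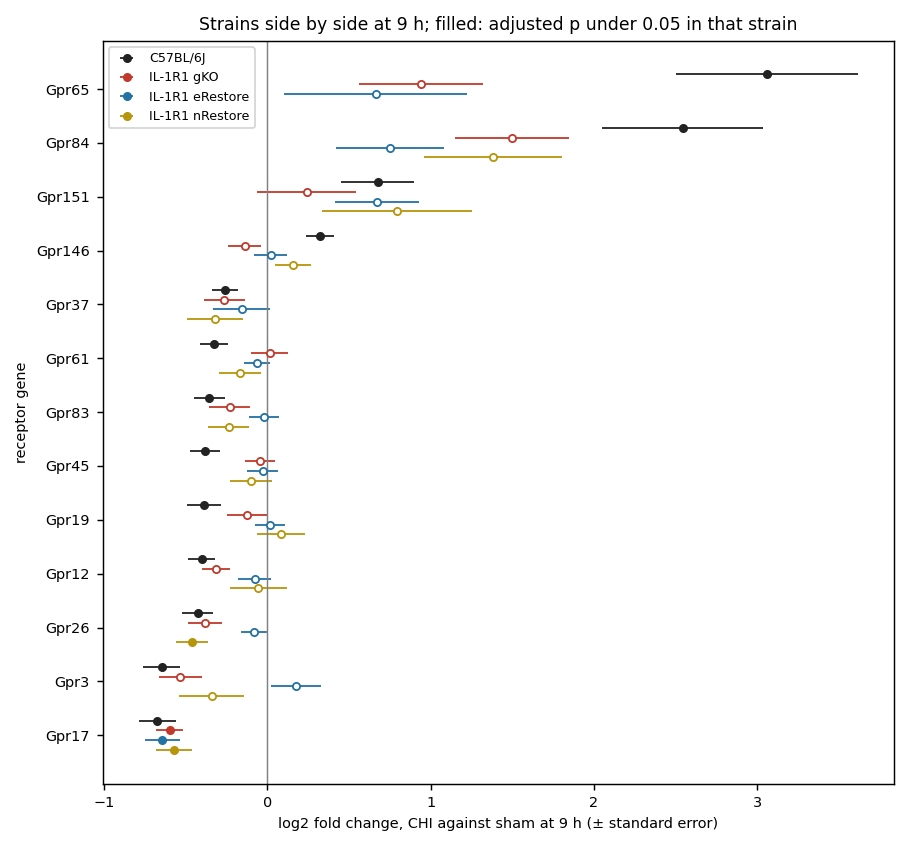
Log2 fold change (± SE) at 9 h in each strain for 13 members called in C57BL/6J, with filled points where that strain's own adjusted p was under 0.05. Values by strain range from -0.68 to -0.57 for Gpr17 and from -0.65 to 0.17 for Gpr3, and neither passed the test of a difference between strains.

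Whether the effect of CHI differed between strains was tested directly, in a joint fit of the strains at each time. The changes given by strain beside this test come from the separate fits. At 9 h 0 of 54 members passed (0.00534% of all genes did), with 8 at an unadjusted p under 0.05 and 0 by DESeq2. Gpr3 came nearest, at -0.65 in C57BL/6J, -0.53 in gKO, -0.34 in nRestore and 0.17 in eRestore (unadjusted p = 0.00042, adjusted p = 0.31). In the joint fit its change differed from that in C57BL/6J by 0.10 in gKO, 0.10 in nRestore and 0.81 in eRestore. In eRestore, Gpr3 was at 4.98 to 8.57 CPM (median 5.96) after CHI and 3.08 to 7.38 CPM (median 5.6) after sham. Gpr65, at 3.06 in C57BL/6J, 0.94 in gKO and 0.66 in eRestore, had an unadjusted p of 0.0083, and Gpr84 one of 0.015. In nRestore alone Gpr65 was too low to be tested. In the joint fit its change differed from that in C57BL/6J by -2.06 in gKO, -2.60 in eRestore and -0.87 in nRestore.

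**Figure D4:**
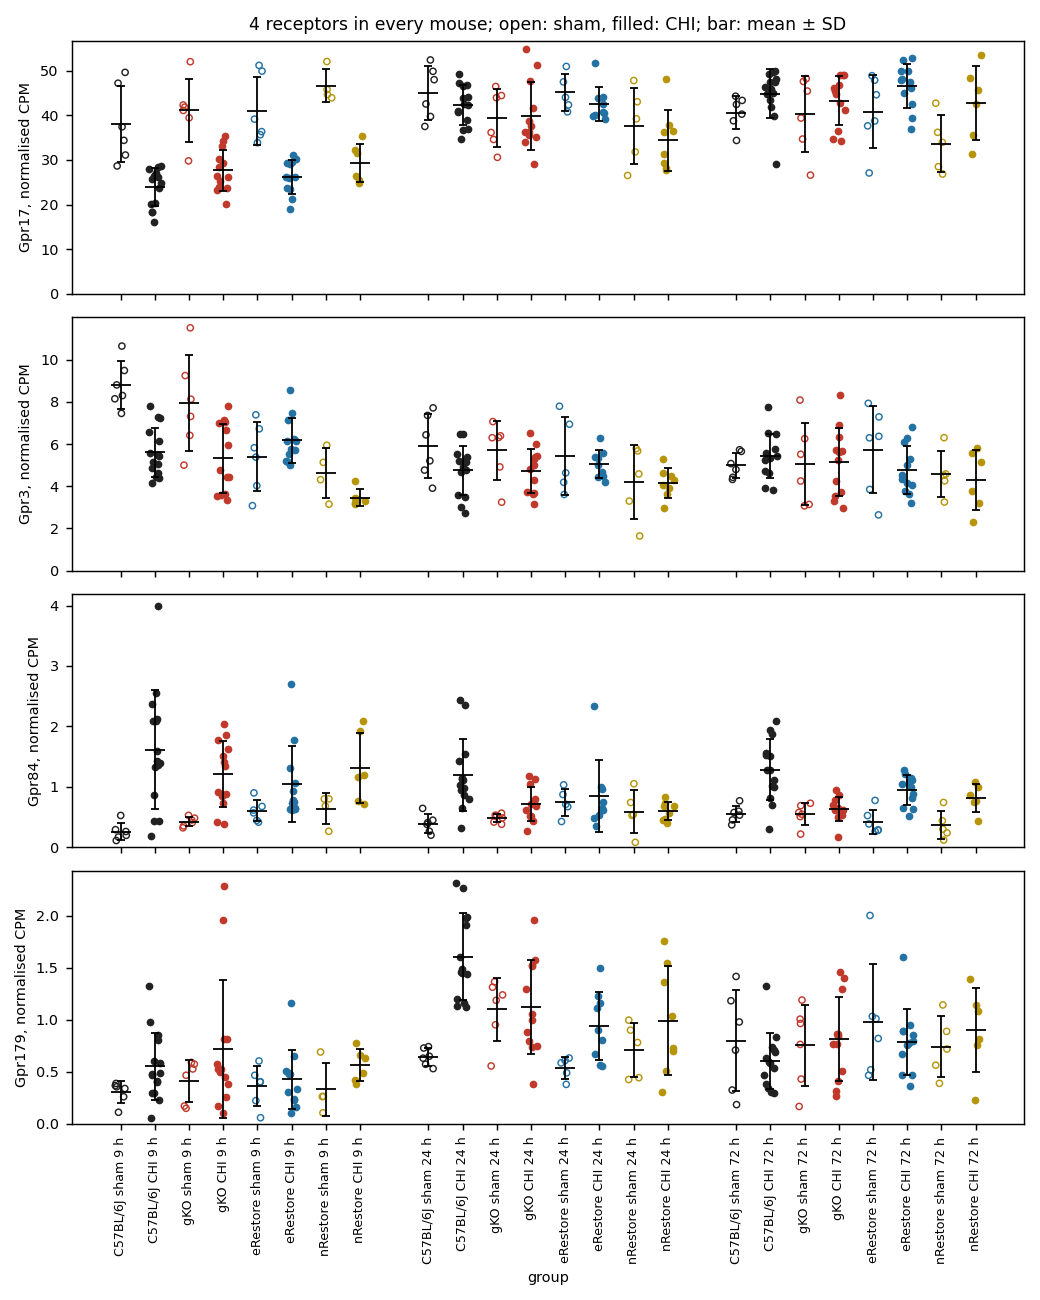
Gpr17, Gpr3, Gpr84 and Gpr179 in every mouse (normalised CPM, bar: mean ± SD) by strain, surgery and time, sham open and CHI filled. In C57BL/6J at 9 h Gpr17 lies at 16.2 to 28.65 CPM after CHI, below every sham mouse, and at 24 and 72 h the groups overlap.

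When the 4 strains were fitted jointly, 23 of 54 members were called at 9 h (8 higher, 15 lower), beside 23.9% of all genes (12% higher and 11.9% lower), with a median change of -0.02 against -0.0026 over all genes. Among them were Gpr84 (1.46 ± 0.22), Gpr65 (1.36 ± 0.30), Gpr17 (-0.63 ± 0.05, adjusted p = 1.6e-14) and Gpr151 (0.55 ± 0.14). In this fit all of Gpr3 (-0.39 ± 0.08), Gpr6 (-0.55 ± 0.20) and Gpr12 (-0.24 ± 0.05) were called lower. The call of Gpr6 was lost without a filter on low counts and that of Gpr12 by DESeq2 with gene-length offsets, and in eRestore alone Gpr3 stood at 0.17. Gpr6 lay at 0.385 to 7.33 CPM (median 2.05) in 46 CHI mice and at 0.645 to 13.6 CPM (median 3.79) in 22 sham mice, with wide overlap.

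Besides Gpr6, further members were called in this fit but in no single strain. The striatal receptors Gpr52 (-0.36 ± 0.13), which couples to Gs in neurons with the dopamine D2 receptor, and Gpr155 (-0.13 ± 0.05), a lysosomal cholesterol sensor, fell, while Gpr139 and Gpr149 were not called. Of 6 markers of striatal spiny neurons, Drd1 (-0.57 ± 0.13), Drd2 (-0.96 ± 0.29) and Pde10a (-0.54 ± 0.16) fell beside them, and their summed level was 152.6 to 763 CPM (median 279) after CHI and 131.5 to 1005 CPM (median 322) after sham. The part of that marker difference in the receptors' values was not tested. Gpr35 (0.86 ± 0.29), a leukocyte receptor with up to 1.46 CPM, and Gpr179 (0.64 ± 0.23), a partner of signalling complexes in retinal bipolar cells, rose. Gpr180 (0.16 ± 0.04) also rose, and Gpr89 (-0.13 ± 0.04) and Gpr176 (-0.13 ± 0.04) fell. Of these calls, those of Gpr52, Gpr155 and Gpr179 were lost without a filter on low counts, that of Gpr179 also with experiment in place of age, and that of Gpr35 by DESeq2 with gene-length offsets. All 5 choroid plexus markers were lower after CHI in this fit (Ttr -2.77 ± 0.85), and their part in the receptors' values was not tested.

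At 24 h in C57BL/6J, 3 of 52 members were called, 2 higher and 1 lower, beside 0.404% of all genes, with 7 at an unadjusted p under 0.05. Gpr179 had the smallest p. It lay at 1.13 to 2.32 CPM (median 1.47) after CHI and at 0.532, 0.574, 0.632, 0.651, 0.73 and 0.743 CPM after sham. The groups did not overlap, and the change was 1.41 ± 0.19 (adjusted p = 0.00012). Mrpl45 overlaps Gpr179 on the other strand, and the strandedness of the libraries is not given in the sources used here, so reads of the overlap cannot be told apart. Other members overlap a gene on the other strand as well, among them Gpr3 (Cd164l2), Gpr17 (Lims2), Gpr26 (Fgfr2), Gpr65 (Gm47566) and Gpr84 (Gm49482). Gpr21, Gpr35 and Gpr52 each overlap a gene on their own strand. Gpr84 lay at 0.328 to 2.43 CPM (median 1.07) after CHI and at 0.2, 0.266, 0.38, 0.41, 0.449 and 0.644 CPM after sham, with 13 of 14 CHI mice above every sham mouse (1.54 ± 0.31, adjusted p = 0.021). Its lowest sham levels lay below the minimum count for testing, so here too Gpr84 entered the test with the help of CHI mice. It was higher in that group, which limits what its p-value shows. Gpr153, an orphan with no known ligand, lay at 11.2 to 19.2 CPM (median 16.2) after CHI and at 17.2 to 25.0 CPM (median 21.3) after sham (-0.34 ± 0.07, adjusted p = 0.024). Gpr179 was called with any sham mouse left out, Gpr84 was lost without sham replicate 1 or 2, and Gpr153 without replicate 1, 3, 4 or 6.

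No member was called at 24 h in gKO (52 tested, 0.0059% of all genes called), eRestore (52 tested, 0% of all genes) or nRestore (53 tested, 0% of all genes). By edgeR, 12, 4 and 2 members had an unadjusted p under 0.05, and DESeq2 called 3, 0 and 0. In each of these strains some CHI mice came from an experiment without sham mice of that strain, and these were older than the other mice. Injury, experiment and age were thus partly tied and cannot be fully told apart here. In gKO the smallest p belonged to Gpr149 (0.97 ± 0.16, adjusted p = 0.053), at 3.34 to 7.82 CPM after CHI and 2.6 to 3.94 CPM after sham and called without sham replicate 1. Gpr6, Gpr139 and Gpr52 (0.72, 0.60 and 0.45) also had an unadjusted p under 0.05. These receptors are enriched in the striatum or basal ganglia. The 6 striatal spiny neuron markers had a median change of 0.63 in the same comparison with 0 called, and a summed level of 843 to 1448.5 CPM (median 1076) after CHI and 572 to 1032.5 CPM (median 828.6) after sham. The part of the markers' difference in these receptors was not tested.

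Over all strains at 24 h, 1 of 55 members was called, Gpr179 (0.81 ± 0.15, adjusted p = 0.00084), beside 1.48% of all genes. By strain its change was 1.41 in C57BL/6J, 1.04 in eRestore, 0.30 in nRestore and 0.21 in gKO. Of 55 members 0 differed between strains at 24 h by edgeR (0.00541% of all genes), with 11 at an unadjusted p under 0.05, and DESeq2 called 1, Gpr153. Gpr153 was at -0.34 in C57BL/6J, 0.08 in gKO, 0.04 in nRestore and -0.0025 in eRestore (unadjusted p = 1.5e-05, adjusted p = 0.13). Here too some CHI mice of the IL-1R1 strains came from an experiment without sham mice of their strain.

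At 72 h no member was called in C57BL/6J (53 tested, 0% of all genes), gKO (52 tested, 0%), eRestore (52 tested, 0.00605%) or nRestore (52 tested, 0.0121%). By edgeR, 3, 1, 2 and 6 members had an unadjusted p under 0.05, and DESeq2 called 1, 0, 0 and 0. Over all strains 1 of 55 members was called, beside 0.706% of all genes. This was Gpr84, at 0.171 to 2.1 CPM (median 0.879) in 44 CHI mice and 0.12 to 0.776 CPM (median 0.508) in 23 sham mice, a change of 0.89 ± 0.16 (adjusted p = 0.00018). It stood at 1.16 in C57BL/6J, 1.13 in eRestore, 1.15 in nRestore and 0.11 in gKO, and the strains did not pass the test of a difference (unadjusted p = 0.033). No member passed that test at 72 h (0 of 55, beside 0.00543% of all genes), with 3 at an unadjusted p under 0.05 and 0 by DESeq2. Of the 5 microglial markers, 4 were higher at 72 h over all strains, among them Cx3cr1, Tmem119 and Csf1r (0.20, 0.19 and 0.18), and the summed level of the 5 was 289.7 to 462 CPM after CHI and 272 to 361 CPM after sham.

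The effect of CHI at 9 h was compared with that at later times in C57BL/6J, in a fit of all 61 mice. Against 24 h, 5 of 55 members differed (5.05% of all genes), with Gpr17 (-0.59 ± 0.14), Gpr12 (-0.49 ± 0.13) and Gpr45 (-0.47 ± 0.12) more negative at 9 h and Gpr153 (0.65 ± 0.14) and Gpr62 (0.45 ± 0.14) more positive. Against 72 h, 6 of 55 differed (6.92% of all genes), among them Gpr17 (-0.82 ± 0.14), Gpr3 (-0.77 ± 0.20), Gpr19 (-0.53 ± 0.14), Gpr45 (-0.36 ± 0.11) and Gpr61 (-0.34 ± 0.11), all more negative at 9 h. These contrasts share the mice of 9 h. Without a filter on low counts, Gpr62 was lost from the first and Gpr45 and Gpr61 from the second. Gpr17 at 24 h lay at 34.8 to 49.3 CPM after CHI and 37.5 to 52.4 CPM after sham, and at 72 h at 29.0 to 49.9 CPM and 34.4 to 44.3 CPM, so the groups overlapped at both times. Gpr3 at 72 h lay at 3.81 to 7.75 CPM after CHI and 4.32 to 5.73 CPM after sham. The difference of Gpr84 between 9 and 72 h did not pass (adjusted p = 0.11).

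Genes that serve these receptors were counted in the same fits, where 14.1% of all genes were called at 9 h in C57BL/6J. Of 25 G protein subunits 0 rose and 2 fell, Gna12 (-0.32 ± 0.06) and Gng11 (-0.52 ± 0.16). Of 23 adenylyl cyclases and phosphodiesterases, which make and degrade cyclic AMP, Adcy9 (0.47 ± 0.09) and Pde4b (0.37 ± 0.07) rose, and Adcy8 (-0.76 ± 0.14), Pde1c (-0.50 ± 0.15) and Adcy3 (-0.24 ± 0.05) fell. Of 18 RGS proteins and partners, which end G protein signals, Rgs9bp rose (1.91 ± 0.37), and Rgs20 (-0.36 ± 0.08) and Rgs19 (-0.31 ± 0.09) fell. Of 7 arrestins and receptor kinases Grk3 rose (0.22 ± 0.06) and Grk5 fell (-0.74 ± 0.09, adjusted p = 4.2e-06). Of 8 genes for proposed ligands or the enzymes that make or degrade them, Hsd3b7 (0.48 ± 0.15), which acts on the oxysterol ligand of Gpr183, and the chemokine Ccl28 (0.62 ± 0.16) rose. Gpr183 itself was not called at 9 h, at 0.554 to 2.08 CPM (median 1.35) after CHI and 0.58 to 1.51 CPM (median 0.88) after sham. The median change of each list lay between -0.10 and 0.04. In eRestore (7.34% of all genes called), 1 G protein subunit rose (Gng2) and 2 fell (Gna12 and Gng5), 4 cyclases and phosphodiesterases rose (Adcy9, Pde1a, Pde4a and Pde4b) and 1 fell (Adcy8), Rgs17 and Arrb1 rose and Rgs20 and Grk5 fell. In gKO edgeR called 0 of the 80 genes of these lists, with 19 at an unadjusted p under 0.05, and in nRestore Grk5 alone, which fell, with 21 at an unadjusted p under 0.05. In the joint fit of the strains (23.9% of all genes), 2 G protein subunits rose and 4 of 26 fell, 4 cyclases and phosphodiesterases rose and 6 of 23 fell, 3 RGS genes rose and 3 of 19 fell, 3 arrestins and kinases rose and 2 of 7 fell, and 2 of 8 ligand genes rose.

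Sham mice of the strains were compared in a fit of all 67, in which the 3 comparisons share the 18 C57BL/6J sham mice. In gKO 2 of 55 members differed from C57BL/6J (4.42% of all genes), in eRestore 3 (4.29%) and in nRestore 6 (14.5%). The fit held time and sex but neither age nor experiment. At 9 h the nRestore mice (3.3 to 4 months) came from 1 experiment without C57BL/6J mice, which were 4.4 to 4.8 months old. Strain, experiment and age cannot be fully told apart in these differences. Gpr183, which guides immune cells along oxysterols, was higher in all 3 strains, by 0.51 ± 0.15, 0.49 ± 0.15 and 0.60 ± 0.16, from a median of 0.992 CPM in C57BL/6J to 1.46, 1.26 and 1.64 CPM. Without a filter on low counts its call in eRestore was lost. In nRestore Gpr3 (-0.52 ± 0.16) and Gpr4 (-0.38 ± 0.14) were lower and Gpr55 (0.50 ± 0.17), a lysophosphatidylinositol receptor, higher, and in eRestore Gpr19 was lower (-0.21 ± 0.06). The call of Gpr19 was lost without the mice that go against their sex label and without the filter, and those of Gpr4 and Gpr55 without the filter. Over all 200 mice 0 of 55 members differed between females and males by edgeR (0.363% of all genes), with 4 at an unadjusted p under 0.05 and 0 by DESeq2. The CHI effect at 9 h differed between the sexes for 0 of 54 (0% of all genes), with 1 at an unadjusted p under 0.05 and 0 by DESeq2.

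More receptors differed between sham mice of different times than in any comparison of CHI with sham. Sham mice at 9 h were set against the mean of sham mice at 24 and 72 h, and 34 of 55 members differed, 21 higher and 13 lower at 9 h, beside 51.3% of all genes (24% higher and 27.3% lower). The striatal receptors were lower at 9 h, Gpr139 by -1.46 ± 0.20, Gpr52 by -1.03 ± 0.15, Gpr149 by -0.89 ± 0.18 and Gpr155 by -0.31 ± 0.07. Gpr6 (-1.29 ± 0.20), Gpr101 (-1.57 ± 0.26) and Gpr50 (-1.29 ± 0.20), the latter pair known from the hypothalamus, Gpr174 (-1.74 ± 0.36) and Gpr179 (-1.15 ± 0.19) were also lower. Gpr174 was too low to be tested in the joint fit of the strains at 9 h, which held the same 9 h sham mice. It thus entered the present fit with the help of sham mice of 24 and 72 h. Its level was higher in those mice, which limits what its call shows. Gpr6 ranged from 0.645 to 13.6 CPM (median 3.79) at 9 h, from 5.94 to 17.1 CPM (median 9.52) at 24 h and from 7.35 to 16.6 CPM (median 11.0) at 72 h, so that the groups overlapped. In each of the 4 strains the median of Gpr52, Gpr139, Gpr149, Gpr155, Gpr6, Gpr101 and Gpr50 was lower at 9 h than later.

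All 6 markers of striatal spiny neurons were lower in the same sham mice, with a summed level of 131.5 to 1005 CPM (median 322) at 9 h, 572 to 1255.8 CPM (median 924) at 24 h and 682 to 1382.6 CPM (median 1029.9) at 72 h. All 5 choroid plexus markers were higher, and 4 of 5 neuronal markers, Rbfox3, Snap25, Syt1 and Slc17a7. Among the members higher at 9 h were Gpr25 (0.90 ± 0.12), Gpr21 (0.66 ± 0.10), Gpr26 (0.47 ± 0.06), Gpr135 (0.39 ± 0.05), Gpr173 (0.36 ± 0.05) and Gpr162 (0.31 ± 0.04). Other positive differences were those of Gpr151 (0.66), Gpr3 (0.38), Gpr22 (0.31), Gpr176 (0.29), Gpr146 (0.26), Gpr45 (0.26), Gpr62 (0.23), Gpr153 (0.21), Gpr161 (0.17), Gpr137 (0.16) and Gpr61 (0.12), and other negative ones those of Gpr55 (-0.35) and Gpr4 (-0.28). Gpr17 (adjusted p = 0.68) and Gpr84 (adjusted p = 0.52) were not called. Time after surgery, experiment, age (3.3 to 4.8 months at 9 h, 4.3 to 5.93 at 24 h and 4.6 to 7.67 at 72 h), time of day and the tissue taken cannot be told apart here.

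**Figure D5:**
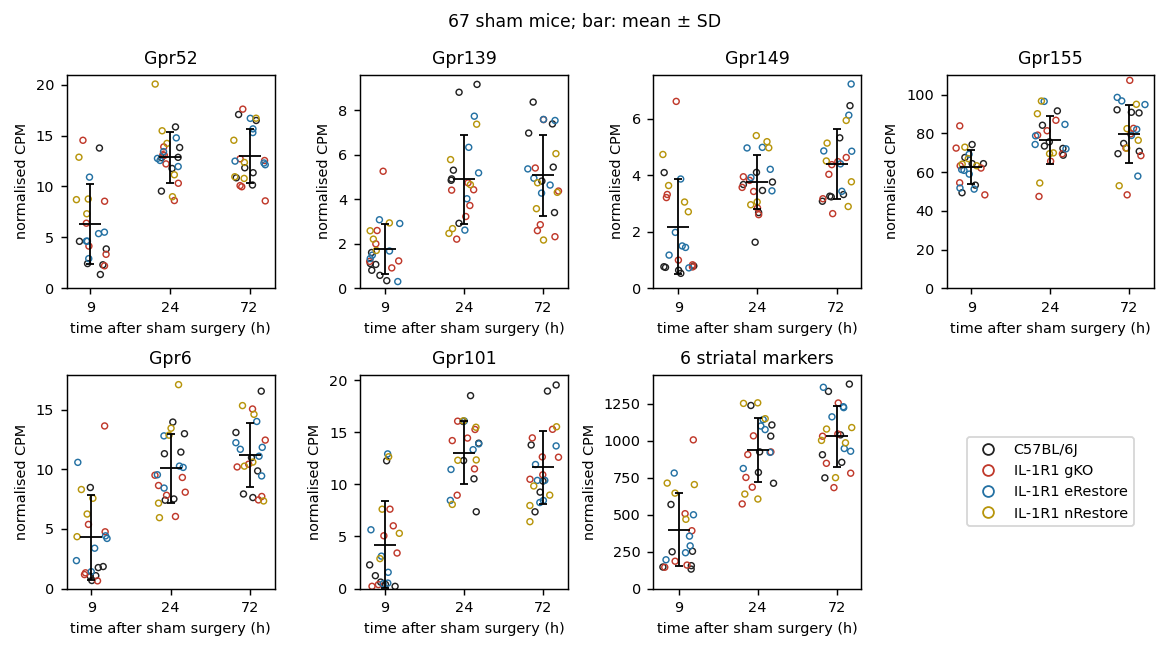
Receptors and the sum of 6 striatal markers in 67 sham mice (normalised CPM, bar: mean ± SD) by time after surgery, coloured by strain. Gpr6 has a median of 3.79 CPM at 9 h, 9.52 at 24 h and 11.0 at 72 h, and the marker sum one of 322, 924 and 1029.9 CPM.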

How the data were processed

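The authors aligned the reads to GRCm39 with STAR and estimated gene levels with Salmon, and the authors deposited estimated counts per gene and TPM per gene for 200 mice. The study's methods name the version of the pipeline (nf-core/rnaseq), but the versions of STAR and Salmon, the annotation release and strandedness are not given in the sources used here. Counts were rounded to whole numbers. A gene was kept in a comparison if it had at least 10 counts in at least as many mice as the smallest group held. CHI was compared with sham in each strain and time, over all strains, between strains, between times in C57BL/6J and among sham mice. The test was edgeR's quasi-likelihood test (edgeR 4.0.16, limma 3.58.1, R 4.3.3) with TMM factors. Sex and age were covariates, except in the comparisons among sham mice, which held strain, sex and time but not age. The p-values were adjusted by Benjamini and Hochberg over all genes tested. A comparison with mice of 1 sex, or of too few mice, dropped the covariate it could not hold. Adjusted p under 0.05 was called. Levels between genes are in TPM, all other levels in CPM after TMM scaling. Alternatives were DESeq2 1.42.0 with its own size factors or with gene-length offsets, RLE factors, no filter, 1 gene set for all comparisons, no covariates, experiment in place of age, each experiment alone, each sham mouse left out, and, chosen after seeing the data, both mice that go against their sex label left out.

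The members, roles and gene lists were chosen with earlier results of these data known. Members called in a comparison are named with values, up to 30 per comparison, and those with the largest changes in full, except some genes that are counted among the members or markers but not reported here by name. The labels give each mouse as its own sample and no replicate numbers, so replicates were numbered in accession order. On simulated counts of the size of the 9 h C57BL/6J comparison (16731 genes), the test called 44 of 70 genes changed 1.5-fold, 49 of 62 changed 2-fold and 58 of 58 changed 4-fold, with 8 unchanged genes among 159 calls. For the 9 h nRestore comparison (16521 genes) these were 30 of 69, 44 of 65 and 58 of 61, with 10 among 142. Promoters and motifs were read with pysam 0.24.0 from GRCm39 with GENCODE M39, which holds 98.9% of the listed gene identifiers. Figures were drawn with matplotlib 3.10.9.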

Additional observations from a re-analysis of the deposited data

Results flagged for a closer look

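In the C57BL/6J sham group at 9 h, 1 mouse (replicate 2) had 12.4 CPM of Gpr19 where the other 5 mice had 8.80 to 9.74 CPM, a gap large for the group's range. It was the single such mouse in 25 group values checked, and chance flags about 1 in 20 groups. Without it the call of Gpr19 at 9 h was lost.

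In C57BL/6J the effect of CHI at 9 h differed from that at a later time, by edgeR's test of the difference itself. Against 24 h the log2 differences were -0.59 for Gpr17, -0.49 for Gpr12, -0.47 for Gpr45, 0.65 for Gpr153 and 0.45 for Gpr62. Against 72 h they were -0.82 for Gpr17, -0.77 for Gpr3, -0.53 for Gpr19, -0.36 for Gpr45 and -0.34 for Gpr61. Without a filter on low counts, the calls of Gpr62 against 24 h and of Gpr45 and Gpr61 against 72 h were lost. No experiment held mice of 9 h and of a later time, so time and experiment cannot be told apart.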

How the results depend on the processing

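Of 505 log2 fold changes of called members recomputed under an alternative, 428 kept their direction and their side of the threshold, 77 kept the direction but lost the call and 0 reversed. Most of these refitted the same mice or all but 1 of them, so a kept direction shows little. With the largest experiment alone 9 of 21 kept the call, and with the smaller experiment alone 2 of 14. Counts of called members moved by over 1.5 times as follows. At 9 h in C57BL/6J (14), the larger experiment alone gave 7 and the smaller 2. At 9 h in gKO (1), DESeq2 gave 5, DESeq2 with length offsets 3 and the largest experiment 0, and in eRestore (3) the largest experiment gave 1. At 9 h in nRestore (2), DESeq2 gave 4, no filter 8, and RLE factors and the common gene set 1 each. At 24 h, the largest experiment gave 1 in C57BL/6J (3), and in gKO (0) DESeq2 gave 3, length offsets 2 and no filter 1. Over all strains at 24 h (1), length offsets gave 0 and leaving out both mice against their sex label gave 2, and DESeq2 gave 1 for a difference between strains (0). At 72 h DESeq2 gave 1 in C57BL/6J (0), and over all strains (1) DESeq2, length offsets and leaving out both mice gave 2 each. Without a filter, the sham comparisons gave 1 in eRestore (3) and 3 in nRestore (6). The cause was not tested, and these counts are given without the share of all genes called in the same setting. With each sham mouse left out, the counts ranged from 11 to 14 in C57BL/6J, 1 to 1 in gKO, 2 to 3 in eRestore and 0 to 2 in nRestore at 9 h, from 1 to 3 in C57BL/6J and 0 to 1 in gKO at 24 h, and were 0 in the other strains at 24 h and in every strain at 72 h. In C57BL/6J at 9 h, the calls lost included Gpr12 by DESeq2 with length offsets, Gpr37, Gpr83 and Gpr146 without covariates and Gpr151 without a filter. In the joint fit of the strains at 9 h, no filter also lost Gpr37 and Gpr61, and length offsets Gpr61. No paired analysis was possible because the labels carry no replicate numbers. Gpr65, Gpr35 and Gpr174 were near 0 counts in many mice, so small changes in them were not detectable at this depth.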
